A study of Mus musculus with 18 samples.

Results

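The 10 genes described here are ones that cells use to read and answer cyclic AMP, measured in brown adipocytes. They are the orphan nuclear receptors Nr4a1, Nr4a2 and Nr4a3, the cAMP-responsive transcription factors Creb1 and Crem, the salt-inducible kinases Sik1 and Sik2, the AP-1 subunits Fos and Junb, and the phosphatase Dusp1. They were taken by gene symbol from a table of 54347 genes, and each of the 10 symbols matched 1 row. All 10 were among the 14949 genes that had enough counts to be tested. The cells were wt1-SAM, a single immortalised mouse brown preadipocyte line that stably carries the CRISPR activation system SAM, so the results describe 1 line and not tissue. All groups were differentiated with rosiglitazone, T3, dexamethasone, insulin, indomethacin and IBMX, and on day 4 they were reverse transfected with a locked nucleic acid gapmer (LNA), a short antisense oligonucleotide that directs cleavage of the RNA it binds. The control was the non-targeting ctrlA, and LNA1 and LNA2 were directed against the long non-coding RNA Gm15551. Cells were left unstimulated or received 1 µM isoproterenol, a β-adrenergic agonist, during the last 24 h, and were harvested on day 7. The 6 groups held 3 libraries each of polyadenylated RNA, numbered 2, 3 and 4.

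In brown adipocytes, β-adrenergic receptors raise cAMP, which activates protein kinase A. The kinase phosphorylates CREB bound to cAMP response elements (CREs), and it inhibits the salt-inducible kinases, which otherwise keep the CREB coactivators of the CRTC family in the cytoplasm. Many CREB targets, the NR4A receptors, Crem, Sik1, Fos, Junb and Dusp1 among them, are immediate-early genes whose transcripts are known to peak soon after a stimulus. The libraries were made 24 h after the agonist was added, and earlier times were not measured here.

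The LNAs define the groups, and their sequences follow in lower case, 5′ to 3′.
ctrlA: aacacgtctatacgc
LNA1: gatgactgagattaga
LNA2: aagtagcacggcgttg

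Library totals ranged from 9167560 to 19723021 counts, with a median of 12914313. A gene with 3 counts, taken as the floor of detection, had 0.170 to 0.306 CPM (counts per library size, normalised by TMM) depending on the library. The targeted Gm15551 was barely detected, with 42 counts in the 6 ctrlA libraries (2 to 14 in each), 24 in the 6 LNA1 libraries (1 to 12) and 27 in the 6 LNA2 libraries (1 to 13), and it did not pass the filter on low counts. The 6 replicate 2 libraries stood apart from the other 12. Between 2.88% and 14.3% of their counts came from a ribosomal RNA gene, CT010467.1, against 0.285% to 1.04% in replicates 3 and 4. All 7 adipocyte markers were above 1 CPM on average, and their summed level was 13177 to 23255 CPM unstimulated and 9601 to 17256 CPM stimulated. Of the 7, Adipoq fell with isoproterenol (log2 fold change -0.71, adjusted p = 0.0073 in edgeR) and Cidea rose (1.27, adjusted p = 0.0011). Of 6 preadipocyte or fibroblast markers, 3 were above 1 CPM (summed 95.2 to 219 CPM unstimulated, 137 to 300 CPM stimulated), and Ly6a was higher with isoproterenol. Of 4 macrophage markers only Cd68 was above 1 CPM, and it was higher with isoproterenol (log2 fold change 0.90, adjusted p = 0.0062 in edgeR). The defining macrophage genes Ptprc and Adgre1 had 12 and 4 counts in all 18 libraries, and of 3 endothelial markers Pecam1 alone was above 1 CPM. The part of these markers, Adipoq, Cidea, Ly6a and Cd68, which move with stimulation, in the results below was not tested.

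The promoters of 5 of the genes are printed, the 4 of 8 with the most matches to the element through which CREB acts (the NR4A genes and Dusp1) and that of Junb, which rose with isoproterenol. RefSeq windows of 300 bases, from 250 before the start site to 50 from it, were matched by symbol and used for 8 of the 10 genes. Those of Sik1 and Crem were not analysed here. Capitals mark the core motif TGACG, or its reverse complement CGTCA, on either strand. Where both overlap they form the full CRE TGACGTCA. All sequences are from GRCm38.p6 and run 5′ to 3′ on the strand of the gene. The Nr4a1 window is chr15:101266596-101266895 (plus strand), Nr4a2 is chr2:57123954-57124253 (minus), Nr4a3 is chr4:48045055-48045354 (plus), Junb is chr8:84978699-84978998 (minus) and Dusp1 is chr17:26508423-26508722 (minus).
Nr4a1: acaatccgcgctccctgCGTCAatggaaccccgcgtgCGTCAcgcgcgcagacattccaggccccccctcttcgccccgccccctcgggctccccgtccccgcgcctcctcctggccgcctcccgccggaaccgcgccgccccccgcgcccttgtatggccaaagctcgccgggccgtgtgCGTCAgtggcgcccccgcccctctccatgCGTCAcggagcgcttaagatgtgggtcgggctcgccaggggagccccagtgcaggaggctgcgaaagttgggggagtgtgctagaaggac
Nr4a2: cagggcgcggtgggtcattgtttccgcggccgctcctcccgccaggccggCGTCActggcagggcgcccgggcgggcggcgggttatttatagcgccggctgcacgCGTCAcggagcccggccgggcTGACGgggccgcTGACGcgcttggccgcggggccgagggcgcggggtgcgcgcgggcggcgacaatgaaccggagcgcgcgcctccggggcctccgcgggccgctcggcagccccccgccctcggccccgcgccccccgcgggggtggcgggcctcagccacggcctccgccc
Nr4a3: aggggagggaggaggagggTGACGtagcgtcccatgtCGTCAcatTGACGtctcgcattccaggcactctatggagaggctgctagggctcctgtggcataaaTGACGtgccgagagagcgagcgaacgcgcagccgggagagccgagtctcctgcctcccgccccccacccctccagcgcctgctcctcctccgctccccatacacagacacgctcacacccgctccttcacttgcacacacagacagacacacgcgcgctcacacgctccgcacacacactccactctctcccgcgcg
Junb: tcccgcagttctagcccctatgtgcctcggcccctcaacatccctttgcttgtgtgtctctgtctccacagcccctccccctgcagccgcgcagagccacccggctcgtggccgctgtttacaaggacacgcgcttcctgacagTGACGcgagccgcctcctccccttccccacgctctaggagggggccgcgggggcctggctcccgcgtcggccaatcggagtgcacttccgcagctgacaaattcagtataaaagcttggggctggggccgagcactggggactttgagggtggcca
Dusp1: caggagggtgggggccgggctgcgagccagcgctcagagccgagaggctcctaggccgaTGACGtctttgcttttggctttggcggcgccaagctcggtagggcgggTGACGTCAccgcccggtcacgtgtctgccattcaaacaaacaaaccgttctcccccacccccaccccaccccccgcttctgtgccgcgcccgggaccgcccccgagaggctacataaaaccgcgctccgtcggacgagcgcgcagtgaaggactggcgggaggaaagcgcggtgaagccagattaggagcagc

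Each of the 3 NR4A windows held 4 copies of the core motif, and 0.231% of 32851 promoter windows of this length held 4 or more. The Dusp1 window held 3 copies, and 1.03% of windows held 3 or more. A pair of the Dusp1 copies overlapped in a full CRE from -143 to -136 relative to the start site, an element that 1.79% of windows held. The Fos and Sik2 windows had 2 copies each (2 or more in 5.01% of windows), Junb had 1 (1 or more in 20.8%) and Creb1 had 0. These are matches of letters, and a window without a match says only that these letters are not in it. The RefSeq starts of Nr4a1, Nr4a3, Creb1 and Dusp1 lie inside the GENCODE gene spans, which begin further upstream. The windows of Nr4a1 and Dusp1, with all their motifs, lie wholly within these spans. Of the Nr4a3 motifs, only the one nearest its RefSeq start lies within its GENCODE span.

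The first question was which of the genes still differed after 24 h of isoproterenol. Of the 10, 4 rose and 0 fell when stimulated and unstimulated cells were compared over the 3 LNAs (9 against 9 libraries): Nr4a1, Nr4a3, Sik1 and Junb. Over all genes tested, 2.02% were called higher, 1.18% lower and 3.2% in either direction, a call being an adjusted p below 0.05 in edgeR's quasi-likelihood test with an absolute log2 fold change above 0.5. The median log2 fold change of the 10 genes was 0.43, and that of all genes tested was -0.0021.

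**Figure D1:**
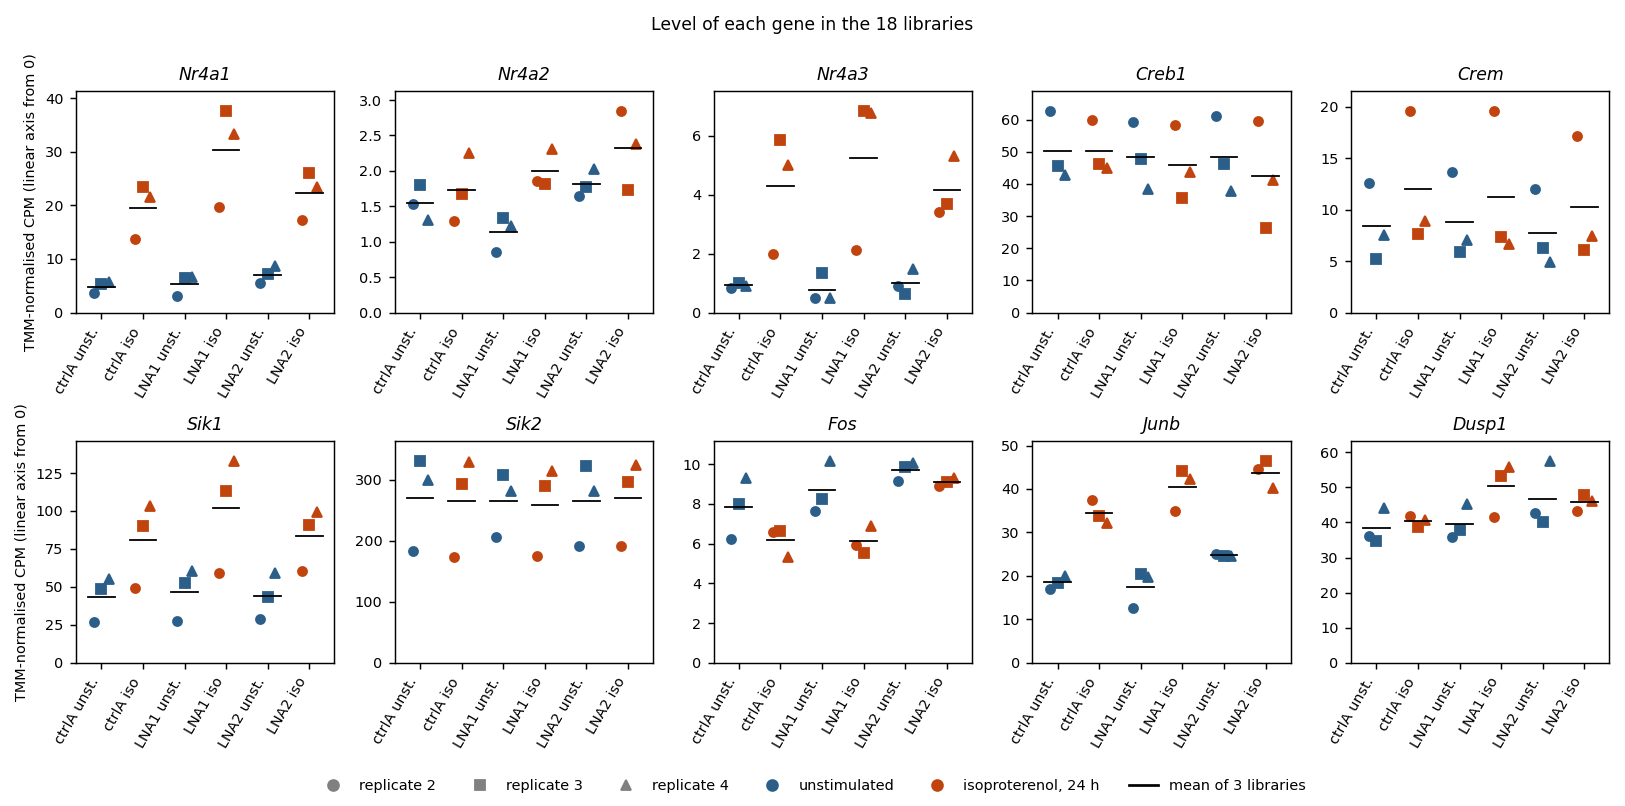
TMM-normalised CPM of each gene (linear axes from 0) in the 18 libraries by LNA and stimulation. Circles, squares and triangles are replicates 2, 3 and 4, blue is unstimulated, orange is isoproterenol and bars are means of 3. For Nr4a1, Nr4a3 and Junb every orange point lies above every blue point, whereas Crem, Creb1 and Sik2 separate by replicate 2.

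Nr4a1 (ENSMUSG00000023034.7, chromosome 15, 101254269 to 101274795, plus strand, GRCm38), an orphan receptor that acts as a transcription factor without a known endogenous ligand, was 3.57, 5.27 and 5.63 CPM in unstimulated ctrlA replicates 2, 3 and 4, and 13.7, 23.5 and 21.5 CPM after isoproterenol. With LNA1 it was 3.06, 6.39 and 6.61 CPM unstimulated and 19.7, 37.6 and 33.4 CPM stimulated. With LNA2 it was 5.53, 7.16 and 8.61 CPM unstimulated and 17.3, 25.9 and 23.4 CPM stimulated. The 9 stimulated libraries were thus all above the 9 unstimulated ones, and replicate 2 was lowest in every group. A separation of this kind was seen for 0.756% of all genes tested. The mean went from 5.76 ± 1.72 to 24.0 ± 7.53 CPM (SD, n = 9, which here and below spans the 3 LNAs). The fold was 4.16 (2.06 ± 0.19 on the log2 scale, value ± SE, edgeR adjusted p = 7.9e-06).

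Nr4a3 (ENSMUSG00000028341.9, chromosome 4, 48045153 to 48086447, plus strand), the receptor also known as NOR1, was much scarcer. Unstimulated replicates 2, 3 and 4 had 0.851, 1.01 and 0.897 CPM with ctrlA, 0.509, 1.33 and 0.509 CPM with LNA1, and 0.909, 0.638 and 1.47 CPM with LNA2. These values rest on 5 to 21 counts a library. Stimulated replicates had 1.98, 5.85 and 5.0 CPM with ctrlA, 2.13, 6.84 and 6.75 CPM with LNA1, and 3.42, 3.69 and 5.30 CPM with LNA2, on 24 to 94 counts. No stimulated library overlapped an unstimulated one, and the 3 lowest stimulated values were those of replicate 2. The mean went from 0.903 ± 0.335 to 4.55 ± 1.84 CPM (SD, n = 9). Its fold of 5.0 was the largest of the 10 (2.32 ± 0.30 on the log2 scale, value ± SE, edgeR adjusted p = 2.4e-04).

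Nr4a2 (ENSMUSG00000026826.13, chromosome 2, 57106830 to 57124003, minus strand), the receptor known as NURR1, did not pass the test. Its promoter window held as many core motifs as those of Nr4a1 and Nr4a3, and a relation of motifs to the response was not tested. It had 1.53, 1.80 and 1.31 CPM in unstimulated ctrlA replicates and 1.29, 1.67 and 2.25 CPM in stimulated ones. With LNA1 it had 0.849, 1.33 and 1.22 CPM unstimulated and 1.86, 1.82 and 2.30 CPM stimulated. With LNA2 the values were 1.65, 1.77 and 2.03 CPM, and 2.85, 1.73 and 2.38 CPM. The states overlapped for ctrlA and LNA2 but not for LNA1, and stimulated cells were higher in 6 of 9 pairs of the same LNA and replicate. Here and below, the share of all genes with a given number of higher pairs was not measured. The log2 fold change was 0.44 (SE 0.16, 95% confidence interval 0.10 to 0.77, adjusted p = 0.16 in edgeR), on 10 to 31 counts a library.

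Sik1 (ENSMUSG00000024042.7, chromosome 17, 31844250 to 31855804, minus strand) encodes a salt-inducible kinase of the AMPK-related family that restrains CREB coactivators. Unstimulated replicates 2, 3 and 4 had 26.8, 48.8 and 55.0 CPM with ctrlA, 27.7, 52.4 and 60.4 CPM with LNA1, and 29.1, 43.5 and 59.3 CPM with LNA2. Stimulated replicates had 49.2, 90.2 and 103 CPM with ctrlA, 59.2, 113 and 133 CPM with LNA1, and 60.5, 90.9 and 99.0 CPM with LNA2. The states overlapped over all 18 libraries because stimulated replicate 2 reached only the level of unstimulated replicates 3 and 4. The mean log2 difference between the states was nearly constant across replicate numbers, at 1.01, 1.02 and 0.93 in replicates 2, 3 and 4. Stimulated cells were higher in all 9 pairs of the same LNA and replicate, by 0.74 to 1.14. Sik1 rose 1.97-fold (0.98 ± 0.23 on the log2 scale, value ± SE, edgeR adjusted p = 0.022). The adjusted p was 0.0502 without stimulated ctrlA replicate 4 (log2 fold change 0.91) and 0.0505 without stimulated LNA1 replicate 4 (0.90), so that the call was lost in 2 of 18 such fits.

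Sik2 (ENSMUSG00000037112.16, chromosome 9, 50892801 to 51009073, minus strand), a family member known to be abundant in adipose tissue, had the highest CPM of the 10, and its states overlapped within each LNA. Unstimulated replicates 2, 3 and 4 had 182, 331 and 299 CPM with ctrlA, 205, 307 and 282 CPM with LNA1, and 191, 322 and 281 CPM with LNA2. Stimulated replicates had 173, 294 and 329 CPM with ctrlA, 175, 289 and 313 CPM with LNA1, and 191, 297 and 325 CPM with LNA2. All 6 replicate 2 libraries were below the other 12, at 0.609 times their level. The log2 fold change with isoproterenol was -0.0097 (95% confidence interval -0.40 to 0.38, adjusted p = 1.00 in edgeR). Some exons of Sik2 overlap those of Ppp2r1b on the opposite strand, and since use of the strand was not stated its counts are uncertain.

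Junb (ENSMUSG00000052837.7, chromosome 8, 84974484 to 84978718, minus strand in the GENCODE entry of the preceding version) encodes a JUN-family subunit of the AP-1 transcription factor. Unstimulated replicates 2, 3 and 4 had 17.0, 18.4 and 20.1 CPM with ctrlA, 12.6, 20.3 and 19.7 CPM with LNA1, and 25.1, 24.6 and 24.7 CPM with LNA2. Stimulated replicates had 37.5, 33.8 and 32.3 CPM with ctrlA, 35.0, 44.2 and 42.3 CPM with LNA1, and 44.5, 46.5 and 40.1 CPM with LNA2. The lowest stimulated library was above the highest unstimulated one, and all 9 pairs were higher. Junb rose 1.97-fold, from 20.3 ± 4.12 to 39.6 ± 5.16 CPM (SD, n = 9; 0.98 ± 0.10 on the log2 scale, value ± SE, edgeR adjusted p = 1.4e-05). Its exons overlap those of Prdx2 on the opposite strand, so its counts are uncertain in the same way as those of Sik2.

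Fos (ENSMUSG00000021250.13, chromosome 12, 85473890 to 85477273, plus strand), whose product pairs with JUN proteins in AP-1, did not follow Junb. Unstimulated replicates 2, 3 and 4 had 6.24, 8.01 and 9.30 CPM with ctrlA, 7.64, 8.25 and 10.2 CPM with LNA1, and 9.17, 9.85 and 10.1 CPM with LNA2. Stimulated replicates had 6.61, 6.63 and 5.31 CPM with ctrlA, 5.95, 5.53 and 6.91 CPM with LNA1, and 8.92, 9.12 and 9.30 CPM with LNA2. Stimulated cells were lower in 8 of 9 pairs, and the states did not overlap for LNA1. The log2 fold change of -0.31 (SE 0.10, 95% confidence interval -0.52 to -0.10) did not pass the test (adjusted p = 0.10 in edgeR). With the replicate number as a block it was -0.30 (adjusted p = 0.013 in edgeR), so that the fold limit alone kept it from a call. The interval of Fos lies below 0 and that of Junb, 0.77 to 1.18, above it.

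Crem (ENSMUSG00000063889.16, chromosome 18, 3266048 to 3337748, minus strand) encodes activators and repressors of CRE-driven transcription, among them the inducible repressor ICER made from an internal promoter, and counts per gene do not separate these forms. Unstimulated replicates 2, 3 and 4 had 12.6, 5.20 and 7.5 CPM with ctrlA, 13.7, 5.86 and 7.02 CPM with LNA1, and 12.1, 6.31 and 4.90 CPM with LNA2. Stimulated replicates had 19.6, 7.66 and 8.88 CPM with ctrlA, 19.6, 7.35 and 6.67 CPM with LNA1, and 17.2, 6.05 and 7.46 CPM with LNA2. Replicate 2 was 2.30-fold above replicates 3 and 4, without overlap. Stimulated cells were higher in 7 of 9 pairs, with a log2 fold change of 0.41 (SE 0.32, 95% confidence interval -0.27 to 1.1, adjusted p = 0.68 in edgeR). Leaving out 1 library moved it from 0.20 (without stimulated LNA1 replicate 2) to 0.57 (without unstimulated LNA1 replicate 2). With the replicate number as a block the value was 0.38 (adjusted p = 0.0039), below the fold limit of a call. Exons of Crem overlap those of Gm6225 on the opposite strand, so its counts are uncertain in the same way as those of Sik2.

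Creb1 (ENSMUSG00000025958.14, chromosome 1, 64532645 to 64604548, plus strand), which encodes CREB itself and is regulated mainly by phosphorylation, was 37.7 to 62.7 CPM unstimulated (median 46.2) and 26.4 to 59.8 CPM stimulated (median 45). The 6 replicate 2 libraries had 58.4 to 62.7 CPM and the other 12 had 26.4 to 47.6 CPM, a 1.47-fold difference without overlap. Stimulation gave a log2 fold change of -0.09 (95% confidence interval -0.44 to 0.26, adjusted p = 0.93 in edgeR), with 4 of 9 pairs higher. The value ranged from -0.19 to -0.0037 in fits without 1 library.

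Dusp1 (ENSMUSG00000024190.7, chromosome 17, 26505590 to 26562128, minus strand), a phosphatase that inactivates MAP kinases, was 34.6 to 57.6 CPM unstimulated (median 40.1) and 38.8 to 55.9 CPM stimulated (median 43.3). The states overlapped within each LNA. The log2 fold change was 0.13 (95% confidence interval -0.07 to 0.33, adjusted p = 0.65 in edgeR). Its window was the only one of the 8 with a full CRE, and a relation of this element to the response was not tested. Its annotated exons overlap those of Ergic1 on the opposite strand, so its counts are uncertain in the same way as those of Sik2.

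**Figure D2:**
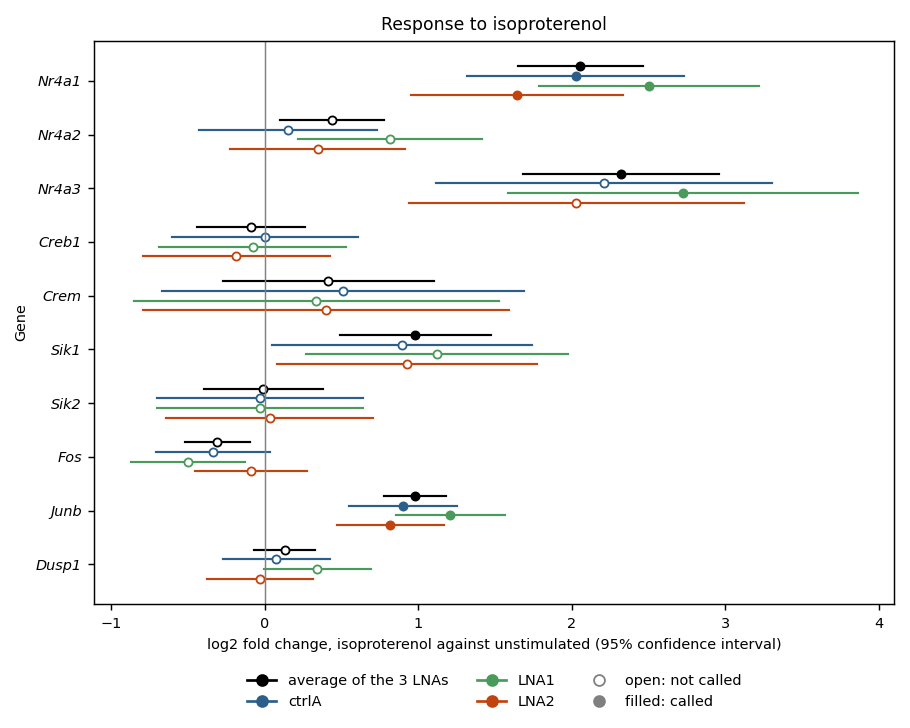
Log2 fold change with isoproterenol and its 95% confidence interval for each gene, averaged over the 3 LNAs (black) and within ctrlA, LNA1 and LNA2. Filled points were called. The averages of Nr4a1 and Nr4a3 lie near 2, those of Sik1 and Junb near 1, and the intervals of Creb1, Crem, Sik2 and Dusp1 span 0.

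Within single LNAs, 3 against 3 libraries, fewer of the genes passed. In ctrlA cells 2 of 10 were called, Nr4a1 (log2 fold change 2.02, adjusted p = 0.0072 in edgeR) and Junb (0.90, adjusted p = 0.020), where 0.488% of all genes were. In LNA1 cells 3 were called, Nr4a1 (2.50, adjusted p = 0.0012 in edgeR), Nr4a3 (2.73, adjusted p = 0.027) and Junb (1.21, adjusted p = 0.0015), against 0.702% of all genes. In LNA2 cells Nr4a1 (1.64, adjusted p = 0.039 in edgeR) and Junb (0.82, adjusted p = 0.042) were called, against 0.395% of all genes. With the replicate number as a block, 4 of the 10 were called in each LNA, Nr4a1, Nr4a3, Sik1 and Junb, against 4.03% of all genes in ctrlA, 5.04% in LNA1 and 4.25% in LNA2 cells. Sik1 then had a log2 fold change of 0.89 in ctrlA, 1.12 in LNA1 and 0.95 in LNA2 cells (adjusted p = 6.09e-06, 6.11e-07 and 5.35e-06 in edgeR), and Nr4a3 had 2.10, 2.65 and 2.05 (adjusted p = 0.0021, 3.7e-04 and 0.0030). Nr4a2, Creb1, Crem, Sik2, Fos and Dusp1 were called in none of the 3 LNAs, with or without the block.

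The fit with the replicate block was not repeated with single libraries left out. Without the block, the calls in single LNAs depended on single libraries, apart from those of Nr4a1 and Junb in LNA1 cells. Both were called in LNA1 cells in 18 of 18 fits without 1 library (adjusted p up to 0.0080 and 0.011 in edgeR). Of 18 fits that each left out 1 library, Nr4a1 was called in ctrlA cells in 17, the exception being that without unstimulated ctrlA replicate 2 (1.84, adjusted p = 0.071 in edgeR). Junb was called in ctrlA cells in 13, and the call was lost when any ctrlA library other than stimulated replicate 4 was left out (0.83 to 0.97 over all fits, adjusted p up to 0.14). Nr4a3 was called in LNA1 cells in 14, and lost without unstimulated replicate 2 or 4 or stimulated replicate 3 or 4 of LNA1 (adjusted p up to 0.15). In LNA2 cells Nr4a1 was called in 6 fits (1.49 to 1.80) and Junb in 1, that without unstimulated LNA1 replicate 2 (0.77 to 0.88), with adjusted p up to 0.20 and 0.22 in edgeR. Without the filter on low counts Junb lost its call in ctrlA (0.93, adjusted p = 0.071 in edgeR) and in LNA2 cells (0.80, adjusted p = 0.25), and Nr4a3 gained one in ctrlA cells (2.23, adjusted p = 0.027). DESeq2 called Nr4a3 in ctrlA (2.22, adjusted p = 0.0051) and in LNA2 cells (2.05, adjusted p = 0.015).

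The blocked fit used the same 18 libraries with a term for each replicate number, and it called 7% of all genes for the average response. The same 4 genes were called in it, with log2 fold changes of 2.05 for Nr4a1, 2.27 for Nr4a3, 0.99 for Sik1 and 0.98 for Junb. The standard error of Sik1 was 0.05 in this fit and 0.23 without the block.

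**Figure D3:**
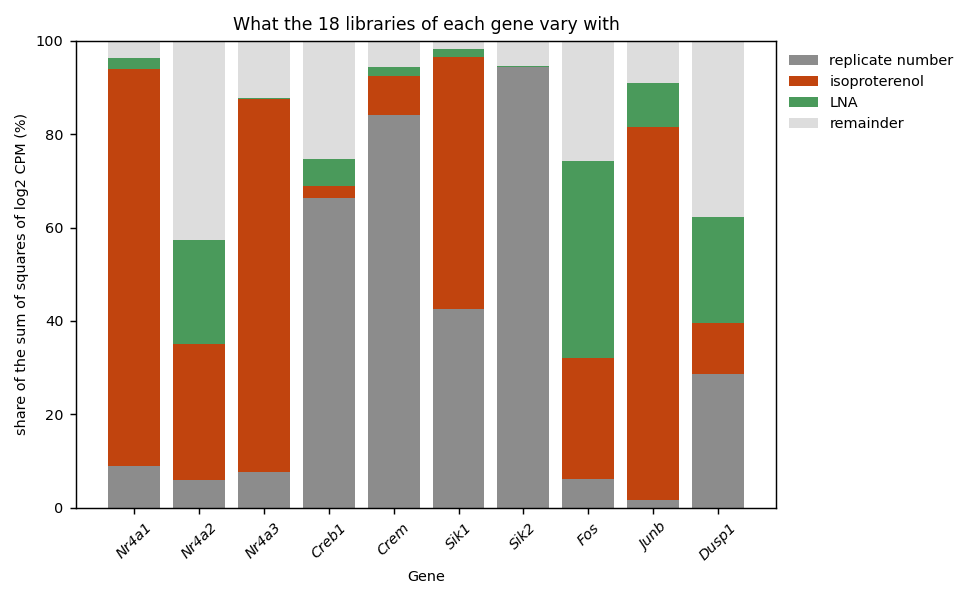
Share (%) of the sum of squares of log2 CPM over 18 libraries that goes with replicate number, isoproterenol, LNA and the remainder, for each gene. Isoproterenol takes most of Nr4a1, Nr4a3 and Junb, replicate number takes most of Sik2, Crem and Creb1, and the share that goes with the LNA is highest for Fos.

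The genes differed in what their levels varied with. Isoproterenol went with 85.0% of the sum of squares of log2 CPM for Nr4a1, 79.9% for Junb, 79.8% for Nr4a3 and 53.9% for Sik1, against a median of 4.32% over all genes tested. Replicate number went with 94.4% for Sik2, 84.2% for Crem and 66.4% for Creb1, against a median of 49.4%. For Sik1 it went with 42.5%. The LNA went with 42.1% for Fos, 22.8% for Dusp1 and 22.3% for Nr4a2, against a median of 8.26%. In these genes isoproterenol went with 29.2% for Nr4a2 and 26.0% for Fos, and replicate number with 28.7% for Dusp1. For Nr4a2 a further 42.7% was left over.

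The joint test over the 6 groups, called at an adjusted p below 0.001, passed for Nr4a1 (adjusted p = 3.5e-04 in edgeR) and Junb (4.0e-04), where 0.455% of all genes passed. Both calls were lost in some fits without 1 library, Nr4a1 in 7 of 18 (adjusted p up to 0.0015) and Junb in 14 of 18 (up to 0.0023). Nr4a3 had an adjusted p of 0.0069 and Sik1 of 0.25 in edgeR, and both passed with the replicate block (6.0e-05 and 4.0e-08), where 8.93% of all genes passed. Nr4a2, Creb1, Crem, Sik2, Fos and Dusp1 did not pass, with or without the block. Nr4a3 also passed in DESeq2 (adjusted p = 1.5e-08) and without the filter on low counts (adjusted p = 1.4e-04 in edgeR).

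The second question was whether the LNAs against Gm15551 moved these genes. None of the 10 was called with LNA1 or with LNA2, each compared with ctrlA over both states (6 against 6 libraries) in edgeR, and at an unadjusted p under 0.05 there were 0 with LNA1 and 2 with LNA2, against 6.01% and 10.6% of all genes. DESeq2 and the replicate block also called 0 of the 10 in both comparisons, while the block called 2.43% of all genes with LNA1, 5.53% with LNA2 and 4.11% between LNA2 and LNA1. Of all genes tested 0.442% were called with LNA1, 1.42% with LNA2 and 0.923% between LNA2 and LNA1, and 0 of the 10 genes were called in the last comparison as well, with 3 at an unadjusted p under 0.05 against 9.2% of all genes. The comparisons of LNA1 and LNA2 share the ctrlA libraries.

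Fos and Junb had the smallest p with LNA2 in the fit without the block, whereas with the replicate block Nr4a1 had the smallest. Fos was 9.41 ± 0.456 CPM with LNA2, 7.41 ± 1.69 CPM with LNA1 and 7.02 ± 1.42 CPM with ctrlA (SD, n = 6, both states together). LNA2 was higher in 6 of 6 pairs of the same state and replicate, with a log2 fold change of 0.43 (edgeR adjusted p = 0.11, SE 0.12). The share of all genes with 6 of 6 higher pairs was not measured. Junb was 34.2 ± 10.6 CPM with LNA2, 29.0 ± 13.2 CPM with LNA1 and 26.5 ± 9.0 CPM with ctrlA (SD, n = 6), and again 6 of 6 pairs were higher with LNA2 (0.38, SE 0.12, adjusted p = 0.14 in edgeR). With the replicate block the adjusted p was 0.0064 for Fos and 0.0069 for Junb, and both values stayed under the fold limit of 0.5. With LNA1 the log2 fold changes were 0.07 for Fos and 0.08 for Junb (0.01 to 0.17 in fits without 1 library). Between LNA2 and LNA1 Fos differed by 0.37 (adjusted p = 0.26 in edgeR) and Junb by 0.30 (adjusted p = 0.36). With the replicate block the adjusted p of this comparison was 0.021 for Fos and 0.030 for Junb in edgeR, both under the fold limit. Without the block, the intervals of the other genes but Nr4a2 (Nr4a1, Nr4a3, Creb1, Crem, Sik1, Sik2 and Dusp1) spanned 0 between LNA2 and LNA1.

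Nr4a1 had similar values with both LNAs, 0.39 with LNA1 and 0.37 with LNA2 on the log2 scale (95% confidence intervals -0.10 to 0.88 and -0.11 to 0.86). Nr4a3 had 0.04 and 0.04 (intervals -0.77 to 0.84 and -0.71 to 0.80). Nr4a2 had -0.12 with LNA1 and 0.33 with LNA2, and 0.45 between LNA2 and LNA1 (95% confidence interval 0.03 to 0.86, adjusted p = 0.47 in edgeR). Sik1 had 0.22 and 0.03, Sik2 -0.03 and -0.0010, Crem -0.02 and -0.19, Creb1 -0.09 and -0.15, and Dusp1 0.18 and 0.24. Against ctrlA, the intervals of these 8 genes all spanned 0 in the fit without the block. With the replicate block Nr4a1 had 0.37 with LNA1 and 0.38 with LNA2 (adjusted p = 0.018 and 0.0057 in edgeR), Sik1 had 0.21 with LNA1 (adjusted p = 0.047) and Dusp1 had 0.23 with LNA2 (adjusted p = 0.037), all under the fold limit. The level was higher in 5 of 6 pairs for Nr4a1 with LNA1, and in 6 of 6 for Nr4a1 with LNA2, Sik1 with LNA1 and Dusp1 with LNA2. With LNA1 it was higher in 4 of 6 for Nr4a3 and Dusp1, 3 for Nr4a2 and Crem, 2 for Sik2 and 1 for Creb1. With LNA2 it was higher in 5 of 6 for Nr4a2, 4 for Nr4a3 and Sik1, 3 for Sik2 and 1 for Creb1 and Crem. The pairs of both LNAs share the ctrlA libraries. In the fit without the block, leaving out 1 library moved Sik1 from 0.10 to 0.37 and Nr4a2 from -0.20 to -0.02 with LNA1. With LNA2 it moved Creb1 from -0.31 to -0.03 and Dusp1 from 0.15 to 0.29.

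**Figure D4:**
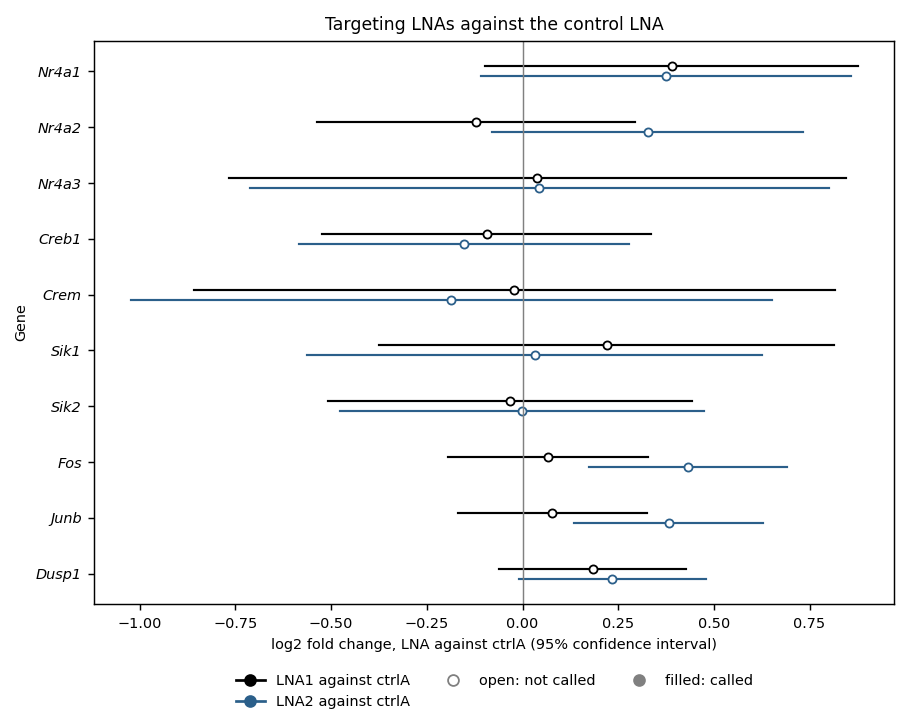
Log2 fold change of LNA1 (black) and LNA2 (blue) against ctrlA over both states, with 95% confidence intervals. Open points were not called, and all points are open. The intervals of Fos and Junb with LNA2 lie above 0.

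The third question was whether an LNA changed the response to isoproterenol. Of all genes tested, 0% were called for either interaction in edgeR (105 genes for LNA1 and 116 for LNA2 had an unadjusted p under 0.05), and DESeq2 called 2 genes for LNA2. None of the 10 genes had an unadjusted p under 0.05 in the edgeR fit without the block. For Nr4a1 the response was 0.48 log2 units larger in LNA1 than in ctrlA cells (95% confidence interval -0.50 to 1.45) and differed by -0.38 in LNA2 cells (interval -1.34 to 0.58). For Nr4a3 the differences were 0.52 (interval -1.05 to 2.08) and -0.18 (-1.70 to 1.34), for Sik1 0.23 (-0.96 to 1.42) and 0.03 (-1.16 to 1.22), and for Junb 0.31 (-0.19 to 0.80) and -0.08 (-0.58 to 0.41). The intervals of Nr4a2, Creb1, Crem, Sik2, Fos and Dusp1 spanned 0 for both LNAs as well. With the replicate block 0% of all genes were again called for either interaction. The values were then 0.49 ± 0.18 and -0.36 ± 0.17 for Nr4a1 (value ± SE, unadjusted p = 0.014 and 0.050, adjusted p = 1.00 and 0.81 in edgeR), and 0.22 ± 0.12 and 0.06 ± 0.12 for Sik1. Within pairs of the same replicate number, the log2 response of Nr4a1 was 2.31 to 2.63 with LNA1, 1.89 to 2.12 with ctrlA and 1.43 to 1.84 with LNA2. The share of all genes whose ranges lie apart in this way was not measured. Single libraries moved the differences between LNAs. Without 1 library the LNA1 difference ranged from 0.17 (without unstimulated LNA1 replicate 2) to 0.70 (without stimulated LNA1 replicate 2) for Nr4a1 and from 0.09 (without unstimulated LNA1 replicate 2) to 0.43 for Junb. For Nr4a3 it ranged from 0.17 (without stimulated ctrlA replicate 2) to 1.14 (without unstimulated LNA1 replicate 3). The LNA2 difference of Nr4a1 ranged from -0.58 (without stimulated ctrlA replicate 2) to -0.20 (without unstimulated ctrlA replicate 2).

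Levels were compared between genes as CPM per kilobase of annotated exon. Unstimulated cells had 28.0 for Sik2, 12.6 for Dusp1, 8.81 for Junb, 8.72 for Sik1, 3.72 for Fos, 3.57 for Creb1, 1.64 for Nr4a1, 1.42 for Crem, 0.369 for Nr4a2 and 0.151 for Nr4a3. Within this order the 9 libraries of Dusp1 and Junb, Junb and Sik1, Fos and Creb1, Nr4a1 and Crem, and Nr4a2 and Nr4a3 overlapped in range, and the other neighbours did not. After isoproterenol Sik1 (17.3) and Junb (17.2) stood above Dusp1 (13.7), and Nr4a1 (6.84) stood above Creb1 (3.37) and Fos (3.04). Nr4a3 (0.760) then stood above Nr4a2 (0.497), and only Dusp1 and Nr4a1 were neighbours without overlapping ranges. Sik2 remained highest at 27.8 and Crem had 1.89. With the length of the longest coding transcript in place of all exons, unstimulated Creb1 (5.86) stood above Fos (4.15) and Crem (2.85) above Nr4a1 (2.26). By that length, stimulated Dusp1 (22.9) stood above Junb (21.9) and Sik1 (19.6), and stimulated Crem (3.81) above Fos (3.39).

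After the mean of each replicate number was removed, log2 CPM of Nr4a1 had a Pearson correlation over the 18 libraries of 0.98 with Sik1, 0.95 with Junb and 0.93 with Nr4a3. The libraries share their replicate numbers and their stimulation, so these values are a description. Among 13160 genes with a mean of at least 1 CPM, those most like Nr4a1 were Thbd, Cd93 and Plekhg4 (0.98 each), and those most like Sik1 were Plekhg4, St3gal1 and Thbd (0.98 each). Gprc5b (0.97), Thbd (0.95) and Timp2 (0.94) were most like Nr4a3, and Rusc2, Ccdc30 (0.96 each) and Acsbg1 (0.95) most like Junb. For Fos they were Crnde (0.90), Prps1 and Cryab (0.86 each), and for Nr4a2 Khsrp (0.86) and Tsc22d4 (0.85). Mospd1, Yipf4 and Slc25a40 (0.97 each) were most like Creb1, Enah (0.90), Ywhaz (0.89) and Zfp706 (0.86) like Crem, C030015A19Rik (0.83), Zfp652 and Lifr (0.79 each) like Sik2, and Aldh3b1, Slc16a8 (0.85 each) and Numbl (0.84) like Dusp1.

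**Figure D5:**
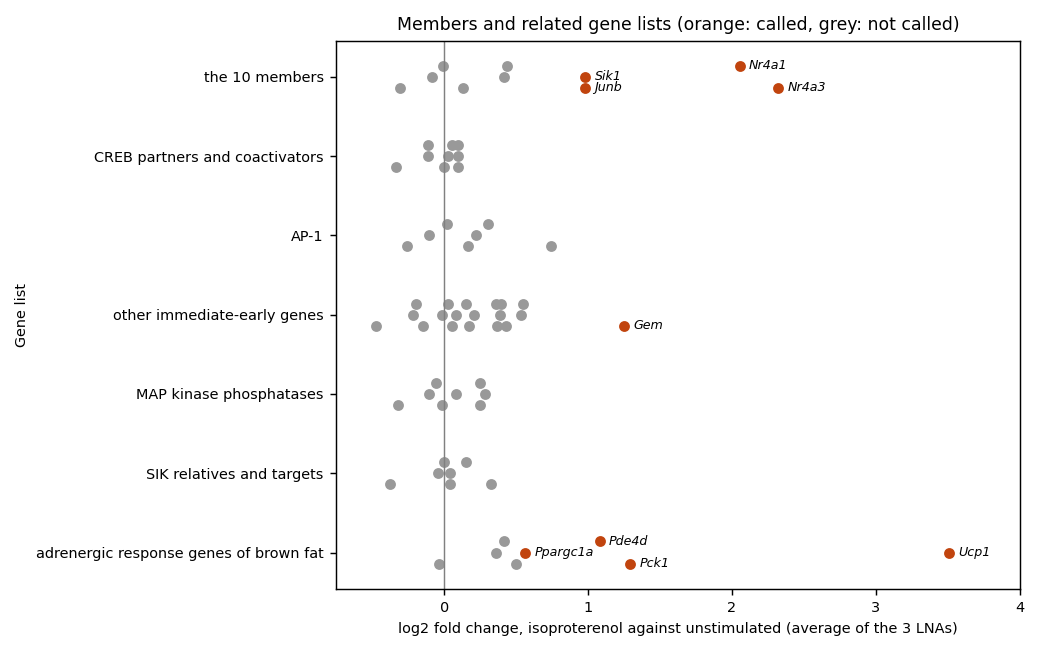
Log2 fold change with isoproterenol, averaged over the 3 LNAs, of the 10 genes and of the tested members of 6 related lists, 1 point a gene. Orange points were called. Besides Nr4a1, Nr4a3, Sik1 and Junb, the called genes are Gem among the other immediate-early genes and Ucp1, Pck1, Pde4d and Ppargc1a among the adrenergic response genes.

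The lists of relatives of these genes are read against the 3.2% of all genes called for isoproterenol and the 15% with an unadjusted p under 0.05. Of 9 partners and coactivators of CREB, 0 were called (median log2 fold change 0.03, 0 at an unadjusted p under 0.05), and those with the largest values were the CREB relatives Creb5 (-0.34, on 176 counts in 18 libraries) and Atf2 (-0.12). Leaving out 1 library moved Creb5 from -0.60 to -0.10 and Atf2 from -0.17 to -0.06. Of 7 tested AP-1 subunits other than Fos and Junb, 0 were called (median 0.16, 2 at an unadjusted p under 0.05), the largest being Fosl1 (0.74, adjusted p = 0.16 in edgeR) and Fosb (0.30). With the replicate block, which called 7% of all genes, Fosl1 was called (0.79, adjusted p = 1.9e-07 in edgeR). Among 8 tested MAP kinase phosphatases 0 were called (median 0.03, 1 at an unadjusted p under 0.05), led by Dusp8 (-0.32) and Dusp9 (0.29). Leaving out 1 library moved Dusp8 from -0.46 to -0.19 and Dusp9 from 0.19 to 0.35. Among 7 tested relatives and targets of the SIKs 0 were called (median 0.04, 0 at an unadjusted p under 0.05), led by the class IIa deacetylases Hdac5 (-0.38) and Hdac7 (0.32).

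Of 19 other immediate-early genes 1 rose, Gem, which encodes a small GTPase, from 3.76 ± 1.32 to 8.82 ± 3.15 CPM (SD, n = 9; log2 fold change 1.25, adjusted p = 0.0051 in edgeR). The list's median was 0.17, and 6 members had an unadjusted p under 0.05. With the replicate block (7% of all genes called) Egr2 and Csrnp1 were called too. Of 8 tested adrenergic response genes of brown fat 4 rose (median 0.53). Ucp1, the uncoupling protein, went from 1.12 ± 0.346 to 12.9 ± 2.25 CPM (SD, n = 9; 3.51, adjusted p = 1.12e-08 in edgeR). Pck1, an enzyme of glyceroneogenesis, rose by 1.29 on the log2 scale, the cAMP phosphodiesterase Pde4d by 1.08 and the coactivator Ppargc1a by 0.56. With the replicate block Rgs2, a regulator of G protein signalling, was called too (adjusted p = 0.027 in edgeR, 7% of all genes called).

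With LNA1 and LNA2 0 members of these 6 lists were called in edgeR, against 0.442% and 1.42% of all genes. At an unadjusted p under 0.05 there were 2 and 10 of them, against 6.01% and 10.6% of all genes. With LNA1 they were 1 of 19 other immediate-early genes and 1 of 8 adrenergic response genes. With LNA2 they were 4 of 19 other immediate-early genes and 3 of 8 adrenergic response genes. The others with LNA2 were 1 of 7 AP-1 subunits, 1 of 8 MAP kinase phosphatases and 1 of 7 SIK relatives and targets. All 8 tested adrenergic response genes had values below 0 with both LNAs, from -0.43 to -0.02 with LNA1 (median log2 fold change -0.23) and from -0.76 to -0.07 with LNA2 (median -0.34), where the median of all genes tested was -0.02 with either. The comparisons share the ctrlA libraries, and the share of all genes below 0 with both LNAs was not measured. The largest values of the lists with LNA1 were those of Creb5 (-0.32) and Ep300 (0.14), Atf3 (-0.34) and Jund (-0.34), Klf2 (0.31) and Egr1 (0.27), Dusp8 (-0.31) and Dusp9 (-0.19), Hdac7 (0.18) and Hdac5 (0.14), and Elovl3 (-0.43) and Ucp1 (-0.35). With LNA2 they were those of Crtc1 (0.39) and Crtc3 (0.20), Fosb and Atf3 (-0.34), Arc and Egr1, Dusp16 (-0.42) and Dusp7 (0.30), Hdac7 (0.31) and Cab39 (-0.24), and Rgs2 and Ucp1 (-0.40). Of the list members Egr1 had the smallest adjusted p with LNA2 (log2 fold change 0.43, adjusted p = 0.044 in edgeR), which was under the fold limit. With the replicate block the adjusted p of Atf3 in edgeR was 0.0019 with LNA1 and 5.4e-04 with LNA2. For Egr1 it was 0.049 with LNA1 and 0.0012 with LNA2, for Jund 0.014 with LNA1 and for Crtc1 0.0049 with LNA2. All of these stayed under the fold limit. Fosb (0.74, adjusted p = 0.064 in edgeR) and Arc (0.73, adjusted p = 0.24) were higher and Rgs2 (-0.76, adjusted p = 0.93) was lower without passing, and all 3 were called with the replicate block (adjusted p = 0.017, 1.1e-04 and 0.0043), where 5.53% of all genes were. Without replicate 2, where 4.93% of all genes were called, Arc (0.81, adjusted p = 0.0054 in edgeR), Rgs2 (-1.53, adjusted p = 0.016) and the MAP kinase phosphatase Dusp16 (-0.51, adjusted p = 0.028) were called. The value of Rgs2 ranged from -1.80 without stimulated LNA2 replicate 2 to -0.14 without unstimulated ctrlA replicate 2. With LNA2, leaving out 1 library moved Crtc1 from 0.20 to 0.56, Crtc3 from 0.05 to 0.37 and Hdac7 from 0.18 to 0.45. With LNA1, Jund ranged from -0.47 to -0.16, Klf2 from 0.15 to 0.49, Dusp8 from -0.52 to -0.13 and Dusp9 from -0.34 to -0.09. Hdac7 ranged from 0.05 to 0.34, Hdac5 from 0.03 to 0.27 and Ucp1 from -0.46 to -0.23 with LNA1.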

How the data were processed

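Polyadenylated RNA was sequenced as paired-end NEBNext Ultra II libraries (18 in all) from wt1-SAM brown adipocytes. The submitters' processing notes name bcl2fastq, cutadapt, Salmon and DESeq2, and the build GRCm38 with Gencode M22, without tool versions. The deposited values are expected counts per gene that the authors made with Salmon and gave as whole numbers (0 of them were not whole), not scaled to depth. How transcripts were summed and whether strand was used are not given in the sources used here. No column of another sample was present.

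The counts were fitted in edgeR 4.0.16 (R 4.3.3) after filterByExpr (minimum count 10, minimum total 15) and TMM, with 1 quasi-likelihood model with a term per group over all 18 libraries. Adjustment was by Benjamini-Hochberg over the 14949 genes tested, and tests were two-sided. A call needed an adjusted p below 0.05 and an absolute log2 fold change above 0.5 (interactions 0.05 alone, the joint test 0.001). The script was checked on simulated data. Alternatives were DESeq2 1.42.0, RLE size factors, no filter, a replicate block, and leaving out each library or all of replicate 2. Libraries were left out of the fit without the block only. The labels give every group the replicate numbers 2, 3 and 4. Deviations from group means correlated at 0.24 to 0.72 (median 0.43) in all 45 pairs of libraries with the same number. In 90 pairs from different groups with different numbers they correlated at -0.60 to 0.40 (median -0.44), and 29 were over 0.1. Of 18 libraries, 18 correlated best with their own number, so the numbers were taken to pair the samples. Whether the replicates came from separate cultures was not stated, so p-values measure only the spread between these libraries. Within groups, chi-square per degree of freedom was 4.32 to 177 over 18 pairs, and 0 pairs were identical. The floor of 3 counts takes in counting error alone, as there were no molecular identifiers.

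All 10 genes are named in each comparison. Of each of 6 lists (65 genes, written from general knowledge), up to 4 called genes or the 2 largest uncalled ones are named, and the likeness of a gene is to its 3 best correlated genes at 1 CPM or more (log2 CPM with a prior count of 2), of which 1 is not reported here. Egr2, Csrnp1, Rgs2 with isoproterenol and the markers were named for the setting stated beside them. The 10 genes and the lists were chosen with earlier results of these data known. Coordinates and exon lengths are from GENCODE M21 (GRCm38), promoter sequences from RefSeq (GRCm38.p6).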

Additional observations from a re-analysis of the deposited data

How the results depend on the processing

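Of 100 values of single genes, 100 kept their direction and side of the threshold with RLE size factors, 97 with DESeq2, 95 without the filter, 88 with the replicate block and 87 without replicate 2. Of 20 counts of calls, 20, 12, 18, 9 and 10 stayed within 1.5 times. DESeq2 called 171, 229 and 153 genes for isoproterenol in ctrlA, LNA1 and LNA2, 133 for LNA1, 338 for LNA2 and 232 for LNA2 against LNA1, 2 for the LNA2 interaction and 556 in the joint test. Without the filter 1 of the 10 genes was called in LNA2, 116 genes passed the joint test, and the LNA2 interaction of Sik1 was -0.016. The replicate block, given that the numbers pair the samples, called 1046 genes for isoproterenol, 603, 753 and 635 in ctrlA, LNA1 and LNA2 (4 of the 10 genes in each), 364 for LNA1, 826 for LNA2, 615 for LNA2 against LNA1 and 1335 in the joint test (4 of the 10), and LNA2 on Sik2 was 0.012. It changed no other call of the 10 genes. Without replicate 2, 726 genes were called for isoproterenol, 197, 324 and 199 in ctrlA, LNA1 and LNA2 (4 of the 10 in each), 180 for LNA1, 738 for LNA2, 443 for LNA2 against LNA1 and 111 in the joint test. Values near 0 then changed sign for isoproterenol on Sik2 (0.011), LNA2 on Nr4a3 (-0.038), and the LNA2 interactions of Sik1 (-0.0086) and Junb (0.034). The cause of these shifts was not tested.

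Leaving out 1 library at a time gave 43 to 81, 49 to 107 and 23 to 66 genes for isoproterenol in ctrlA, LNA1 and LNA2 (0 to 3, 2 to 3 and 0 to 2 of the 10), 32 to 82 for LNA1, 113 to 262 for LNA2, 73 to 153 for LNA2 against LNA1, 0 to 1 for the LNA2 interaction and 34 to 55 in the joint test (0 to 2 of the 10). Values that changed sign in such a fit were, for isoproterenol, Sik2 (-0.085 to 0.063) and, in ctrlA, Nr4a2 (-0.059 to 0.32). For LNA1 they were Creb1 (-0.19 to 0.0057), Crem (-0.36 to 0.25), Nr4a3 (-0.27 to 0.24), Sik2 (-0.13 to 0.090), Fos (-2.14e-06 to 0.13), Ep300 (-0.0024 to 0.33) and Creb5 (-0.72 to 0.031). For LNA2 they were Crem (-0.48 to 0.089), Sik1 (-0.11 to 0.16), Nr4a3 (-0.15 to 0.20) and Sik2 (-0.10 to 0.11). The interactions of Sik1 with LNA1 (-0.060 to 0.50) and LNA2 (-0.22 to 0.30) and of Nr4a3 with LNA2 (-0.52 to 0.21) changed sign as well. Isoproterenol on Sik1 ranged from 0.89 to 1.07. Nr4a2 and unstimulated Nr4a3 had 5 to 31 counts a library, and the part of depth in their values was not tested.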
